A study of Mus musculus with 27 samples.

Results

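The arrays described here follow embryoid bodies that carry a short hairpin RNA (shRNA) against Sox17 from day 4 to day 5 of differentiation. They were chosen by their titles: 2 arrays of Sox17 shRNA cells at day 5 and 2 at day 4, 4 of the 27 arrays of the series. The cells were AB2.2, a mouse embryonic stem cell line. A lentivirus gave them enhanced green fluorescent protein and, in the same vector, the shRNA against Sox17. Control cells carried the same kind of vector with an shRNA against firefly luciferase, which mouse cells lack, and gave 4 arrays at the same days. Cells of both arms were flow-sorted for green fluorescence and aggregated in hanging drops. They were moved to culture plates at day 4.5, so plating falls between the days compared and its effect cannot be told apart from that of 1 more day. Total RNA was hybridised to Affymetrix mouse arrays. An shRNA lowers its target and does not remove the gene, and the labels name no clone, so each culture is a sorted population.

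Sox17 is a transcription factor of the definitive endoderm, the layer that forms gut and its glands and that lies beside the early heart field. In embryoid bodies, as in the embryo, pluripotent cells pass through an epiblast-like state and a primitive-streak-like state before they become mesoderm and endoderm. Nodal, Wnt, Fgf and Bmp signals guide these steps. By its title the series asks how Sox17 acts on cardiac mesoderm through Hhex and Cer1. The day 5 against day 4 comparison shows which parts of this sequence went on in the knockdown culture across plating.

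All levels are log2 values after robust multi-array averaging (RMA), and 1 unit is a 2-fold difference. Values are listed as replicate 1 and then replicate 2. A gene is called changed where the adjusted p of limma is below 0.05 over all 13297 genes tested. The labels describe the replicates as biological but do not say that they are separate transductions, so p-values measure only variation between arrays. Its size was estimated for each gene over all 14 groups, not from these 4 arrays alone. The spread was large here. The SD of the difference between replicates was 0.507 at day 4 and 0.385 at day 5 with Sox17 shRNA, the largest of any group. The pooled spread can therefore understate theirs, and their standard errors and adjusted p can be too small. The correlation of the replicates was 0.964 at day 4 and 0.980 at day 5 with Sox17 shRNA, against 0.983 and 0.995 in the control arm. The bioB spike-in signal was high on replicate 1 of day 4 in both arms, at 9.67 with Sox17 shRNA and 9.49 in the control, and on the arrays of days 0 and 2 (9.21 to 9.37). The other 3 arrays of the Sox17 shRNA arm read 6.97 to 7.95, and those of the control 6.90 to 6.99. Replicate 2 of day 4 had the widest gap between the 3' and 5' actin control probe sets, 0.86 against 0.35 to 0.48. Replicate 2 of day 5 correlated at 0.979 and 0.983 with the control arrays of day 5 and at 0.984 with the second control array of day 4. For replicate 1 these values were 0.963, 0.963 and 0.973. Calls are therefore given with the arrays on which they rest, and the part of hybridisation and RNA quality in them was not tested beyond the alternatives given.

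Sox17 itself lay below both control arrays at day 4 and spread widely between the arrays that carry its shRNA. It read 5.53 and 9.39 at day 4. The day 5 arrays read 7.77 and 10.08, so the days overlapped. The difference of 1.47 ± 0.80 (SE) did not pass the test (adjusted p = 0.308), and it was -0.46 without replicate 1 of day 4. In the control arm Sox17 stood at 10.30 and 10.66 and then at 10.38 and 10.38. On this probe set the second day 5 array of the knockdown was thus near the control level. A second Sox17 probe set read 5.82 and 7.82 at day 4, then 6.45 and 8.52 at day 5 (difference 0.66), so there too the days overlapped. Hhex, a homeobox factor of anterior endoderm, read 5.69 and 7.78 at day 4, then 6.67 and 7.51 at day 5 (difference 0.36, adjusted p = 0.692). Cer1, which binds Nodal and Bmp ligands outside the cell and blocks them, read 4.26 and 7.58 and then 5.29 and 6.28 (difference -0.14, adjusted p = 0.926). For all 3 genes replicate 1 was below replicate 2 at both days.

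Across plating 747 genes changed in the Sox17 shRNA culture, 5.62% of those tested. Of these, 304 were higher at day 5 (2.29%) and 443 lower (3.33%), and with each array centred on its median the split was 435 higher and 359 lower. At least 2-fold were 96 of the higher genes (0.722%) and 68 of the lower (0.511%). The median over all genes tested was -0.06. The counts depended on single arrays. Without replicate 1 of day 4 they were 76 higher and 264 lower, and without replicate 2 of day 5 they were 87 and 170. Without replicate 2 of day 4 they were 1250 and 1361, and without replicate 1 of day 5 they were 407 and 431. In a fit on these 4 arrays alone limma called 0 genes, with 813 at an unadjusted p below 0.05. Of the 747 called genes, 38 higher and 56 lower were called without any 1 of the 4 arrays, and 0 changed sign. Of the 88 named genes called here, 32 kept the call without replicate 1 of day 4, 81 without replicate 2 of day 4, 78 without replicate 1 of day 5 and 26 without replicate 2 of day 5. A called gene that is not said to be called without any 1 of the 4 arrays lost its call in at least 1 of these fits. For all 304 higher and 443 lower genes both day 5 arrays lay beyond both day 4 arrays. Leaving out 1 array could therefore turn no sign, and a lack of overlap adds nothing to a call. Over all genes tested the day 5 arrays lay above those of day 4 in 13% and below in 22.6%.

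The control arm called 1353 genes (10.2%) over the same step, on arrays of its own, with 532 higher (4%) and 821 lower (6.17%). Without its replicate 1 of day 5 these counts were 81 and 137. It shared 140 of the higher genes, 46.05% of those of the Sox17 shRNA arm and 26.32% of its own. It shared 227 of the lower genes, 51.24% and 27.65%. Of the 304 genes higher with Sox17 shRNA 279 also had a positive difference in the control arm, and of the 443 lower genes 428 had a negative one. Across all genes tested the changes of the arms correlated at 0.634, over genes that are not independent of each other. The bioB signal was high on replicate 1 of day 4 in both arms (9.67 with Sox17 shRNA and 9.49 in the control). The part of such a hybridisation difference in the agreement of the arms was not tested. Only Fgf10 and Pcdh8 were called in opposite directions.

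**Figure D1:**
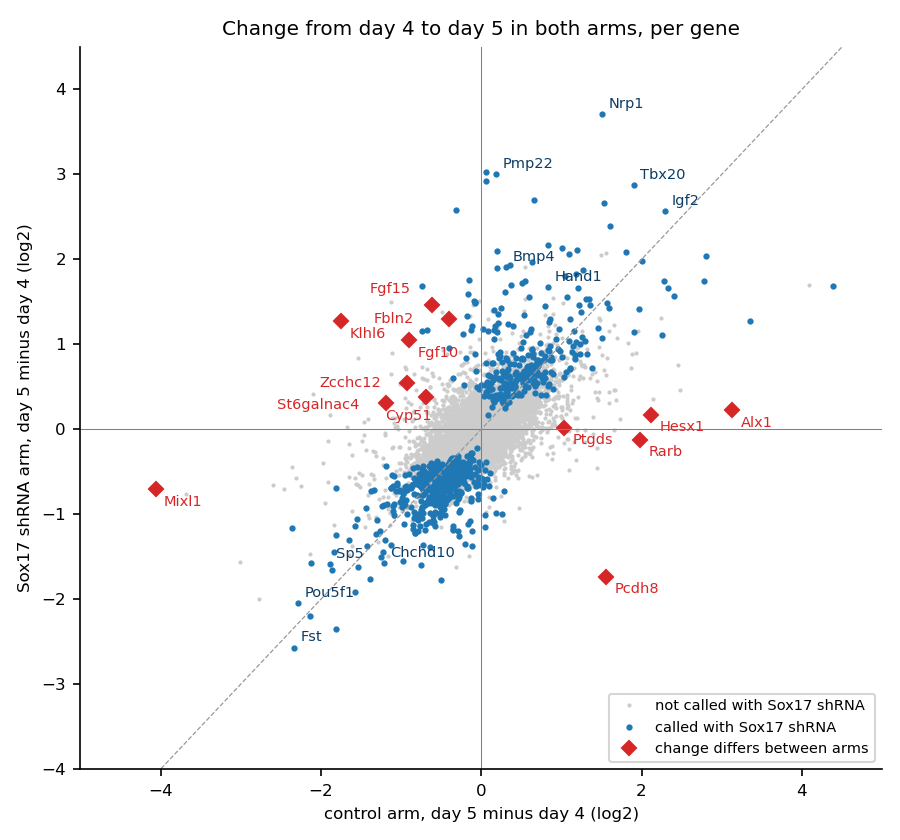
Each point is 1 of 13297 genes, with the day 5 minus day 4 difference of the control arm (x axis, log2) against that of the Sox17 shRNA arm (y axis, log2); blue points are called with Sox17 shRNA, red diamonds are the 13 genes whose change differed between arms, and the dashed line marks equal change. Most blue points lie in the quadrants of shared direction, and Pcdh8 lies apart at the lower right.

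Of the 32 gene lists described, the Bmp pathway had the largest share of members that rose. Bone morphogenetic proteins are secreted ligands that signal through Smad1 and Smad5, pattern ventral and extraembryonic mesoderm, and act on cardiac progenitors. Of 23 genes of this pathway, all tested, 13 rose and 0 fell, against a background of 2.29% of all genes higher. The median difference was 1.25, where all genes had -0.06. Leaving out replicate 1 of day 4 left 5 members higher and 1 lower, and leaving out replicate 2 of day 5 left 5 higher. Bmp4, Bambi, Id1, Id2 and Hand1 were called without any 1 of the 4 arrays.

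Of the ligands, Bmp4 read 6.74 and 7.74 at day 4, then 8.80 and 9.49 at day 5, a rise of 1.91 ± 0.28 (SE, adjusted p = 0.001507). As for every gene called higher, both day 5 arrays lay above both day 4 arrays. Bmp5 rose by 1.98 (adjusted p = 0.009698), from 4.41 and 5.18 to 5.96 and 7.60, and was at 0.0838 without replicate 1 of day 4 and 0.117 without replicate 2 of day 5. Bmp2 rose by 2.17 (adjusted p = 0.04963), but its first day 4 array, at 4.40, was far below the second, at 7.13, and without it the difference was 0.81 with an adjusted p of 0.484. Bmp7, a further ligand, was at 0.02 (adjusted p = 0.942).

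Of the pathway's inhibitors, Bambi, Smad6 and Bmper rose, and Smad7, Nog, Grem1 and Chrd did not pass the test. Bambi, a membrane pseudoreceptor that dampens Bmp and Tgf-beta signals, went from 7.30 and 8.24 to 9.42 and 10.39, a rise of 2.14 ± 0.32 (SE, adjusted p = 0.00161). Smad6, the inhibitory Smad, rose by 1.72, from 5.65 and 6.85 to 7.14 and 8.81 (adjusted p = 0.02001). It was not called without replicate 1 of day 4 (adjusted p = 0.186) or without replicate 2 of day 5 (0.230). Bmper, a secreted Bmp-binding protein, rose by 1.97, with its first day 4 array at 5.17 and the other 3 between 7.88 and 8.88. Without that array the difference was 0.62 (adjusted p = 0.357). Smad7, a second inhibitory Smad, was at 0.72 (adjusted p = 0.0810). The secreted antagonists Nog, Grem1 and Chrd were at 0.48, -0.23 and -0.38, with adjusted p of 0.318, 0.464 and 0.0719.

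Of the transcriptional targets on the list Id1, Id2, Id3, Hand1, Msx1, Msx2 and Tbx3 rose, and Tbx2, Gata2 and Id4 did not pass the test. Id proteins block the partners of basic helix-loop-helix factors and are direct Bmp targets in many cells. Id2 went from 8.19 and 8.72 to 9.98 and 10.26, a rise of 1.66 ± 0.23 (SE, adjusted p = 0.001215). Id1 rose by 0.90 (adjusted p = 0.001507) and Id3 by 0.73 (adjusted p = 0.009401), although Id3 just missed the threshold without replicate 1 of day 4 (0.0504) and was at 0.0834 without replicate 2 of day 5. Hand1, a factor of extraembryonic mesoderm and the heart tube, read 6.70 and 6.66 at day 4, then 8.16 and 8.54 at day 5. Its rise of 1.67 ± 0.20 (SE, adjusted p = 0.0004182) kept its size in the fits that left out 1 array, at 1.48 to 1.86. The homeobox genes Msx1 and Msx2 and the T-box gene Tbx3 rose by 1.49, 1.94 and 1.49. All 3 lost the call without replicate 1 of day 4 (adjusted p of 0.275, 0.157 and 0.416) and without replicate 2 of day 5 (0.188, 0.230 and 0.354). The signal-transducing Smad1 and Smad5 were at 0.14 and -0.05.

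Of the 23 Bmp genes 4 rose in the control arm (Bmp5, Hand1, Id2 and Id3) and 2 fell (Chrd and Smad1), with a median difference of 0.36. Over all genes 4% were higher and 6.17% lower there. For none of the 23 did the test of the difference between arms pass. For Bmp4 the rise exceeded that of the control arm by 1.59, with a 95% interval of 0.75 to 2.43 and an adjusted p of 0.181. At day 4 the mean level of the 23 genes was 6.57 and 7.41 with Sox17 shRNA and 7.35 and 7.78 in the control, so the arms overlapped. Of single members, Bmp4, Bambi and Msx2 lay lower on both day 4 arrays of the Sox17 shRNA arm than on either control array. The share of all genes in that order was not counted, and day 4 levels were not tested between arms. In whole embryoid bodies more cells that express a gene and more of its RNA per cell cannot be told apart.

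**Figure D2:**
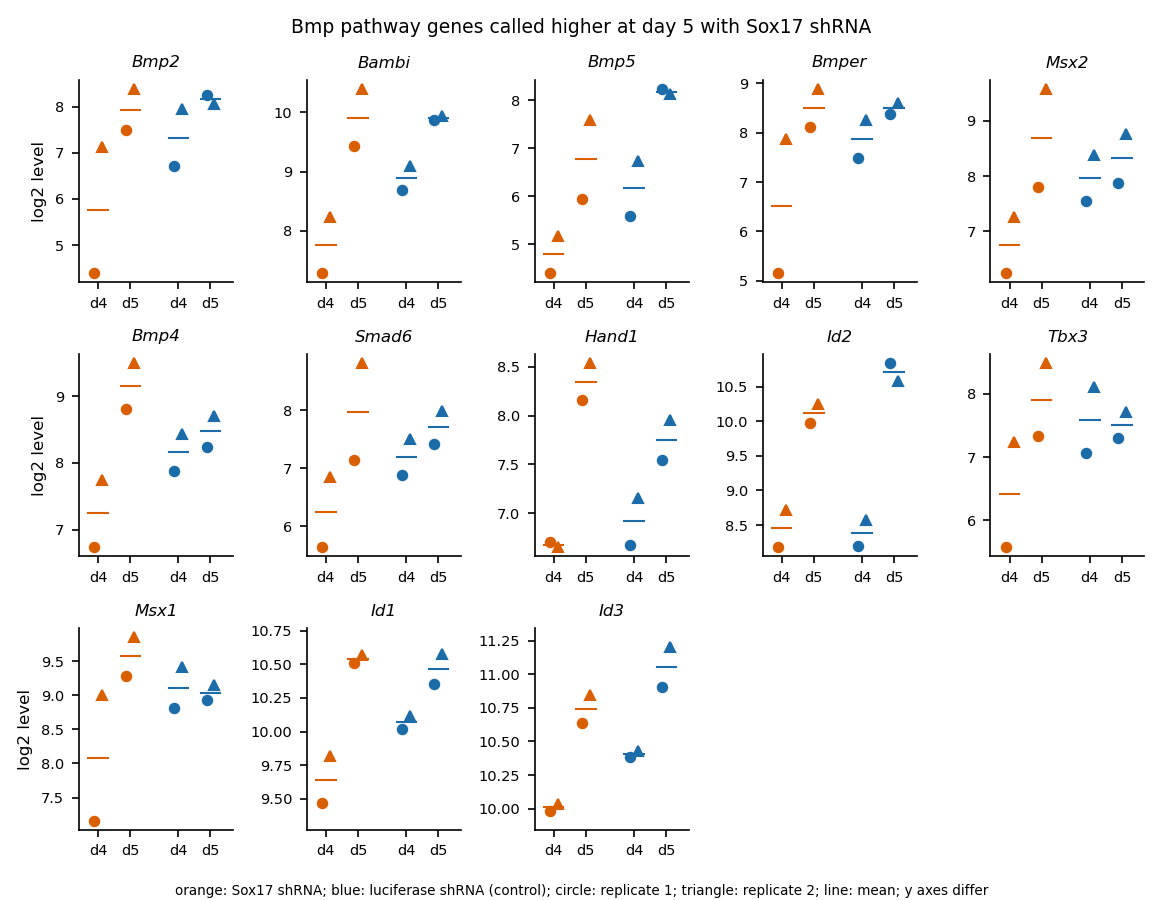
Log2 level of the 13 Bmp pathway genes called higher at day 5 with Sox17 shRNA, on each of 8 arrays; orange is Sox17 shRNA, blue the control, circles are replicate 1, triangles replicate 2 and short lines the mean of 2 arrays, with a y axis for each gene. Hand1 and Id2 show replicates close together, while Bmp2, Bmper and Msx1 have a single low array at day 4.

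The sequences upstream of these genes were searched because the members moved together. RefSeq promoters of GRCm38.p6 were given for 8 of the 13 genes, and the 250 bases before the start were read on both strands for 5 short motifs linked to Smad proteins. GGCGCC was found in 1 of the 8 genes (Id2) and in 9.59% of 32851 promoters. GCCGNCGC was found in 1 (Msx2) and in 6.89% of all. CAGACA was found in 1 (Bmp5) and in 17.1% of all. GTCTAGAC and GTCTGGAC were found in 0 of the 8 and in 0.167% and 0.682% of all. No motif was shared by 2 of the genes. The Id2 window lies at chr12:25096093-25096342 on the minus strand, with GGCGCC beginning 231 bases before the start. The Bmp5 window lies at chr9:75775115-75775364 on the plus strand, with the match, as the reverse complement TGTCTG, beginning 135 bases before the start. Both are shown 5' to 3' with the match in capitals, as examples of these upstream regions.
Id2: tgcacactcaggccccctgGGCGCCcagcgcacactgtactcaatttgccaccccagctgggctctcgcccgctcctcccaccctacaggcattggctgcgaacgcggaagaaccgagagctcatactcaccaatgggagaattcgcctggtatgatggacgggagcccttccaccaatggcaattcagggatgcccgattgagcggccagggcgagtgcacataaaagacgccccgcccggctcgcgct
Bmp5: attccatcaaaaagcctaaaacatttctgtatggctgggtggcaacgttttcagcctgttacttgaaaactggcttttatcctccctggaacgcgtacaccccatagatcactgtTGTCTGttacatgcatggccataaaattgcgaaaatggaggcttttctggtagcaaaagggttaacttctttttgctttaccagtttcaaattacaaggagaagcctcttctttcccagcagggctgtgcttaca

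Of all called genes Nrp1, a co-receptor for semaphorins and Vegf, rose most, from 4.74 and 8.44 to 9.60 and 10.99, by 3.71 ± 0.70 (SE, adjusted p = 0.005837). As for every gene called higher, both day 5 arrays lay above both day 4 arrays. The first day 4 array of Nrp1 was far below the second, and without it the rise was 1.86. Without replicate 2 of day 5 the adjusted p was 0.0695. Pmp22, a membrane protein best known from myelin, rose 8.01-fold (adjusted p = 0.001969), from 6.57 and 8.91 to 10.32 and 11.17. The control had Pmp22 at 8.56 and 8.89 and then 8.77 and 9.06, so at day 5 both knockdown arrays lay above all 4 control arrays. The test of the difference between arms did not pass (adjusted p = 0.141). The log2 rise of Pmp22 was 1.84 without replicate 1 of day 4 and 4.17 without replicate 2 of that day.

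Igf2, the imprinted fetal growth factor, rose in both arms. It read 8.00 and 8.16 and then 9.75 and 11.55 with Sox17 shRNA, a rise of 2.57 ± 0.34 (SE, adjusted p = 0.0009164), and it rose by 2.30 in the control. Capn6, a calpain without protease activity, went from 5.98 and 5.55 to 7.28 and 9.04, by 2.39 (adjusted p = 0.001507). Foxf1, a forkhead factor of lateral and extraembryonic mesoderm, went from 5.05 and 5.61 to 6.65 and 8.21, by 2.11 (adjusted p = 0.003867). A second Foxf1 probe set was at 0.21, from 6.80 and 5.71 to 6.37 and 6.56, so there the days overlapped. Igf2, Capn6, Foxf1 and Pmp22 were called without any 1 of the 4 arrays. On the second day 5 array Igf2, Capn6 and Foxf1 stood well above the first, and without it their rises were 1.67, 1.51 and 1.33.

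Other large rises lost the call without replicate 1 of day 4 and also without replicate 2 of day 5. Cxcr4, the chemokine receptor of migrating endoderm and mesoderm, read 4.86 and 8.50 at day 4, then 8.73 and 9.79 at day 5 (2.58, adjusted p = 0.03401). Without replicate 1 of day 4 the Cxcr4 difference was 0.76 (adjusted p = 0.289), and without replicate 2 of day 5 it was 2.05 (0.215). Ackr3, a scavenging receptor of the same chemokine, rose by 2.92, from 4.12 and 6.28 to 6.83 and 9.42 (adjusted p = 0.009728). It was at 1.84 without replicate 1 of day 4 (0.104) and at 1.63 without replicate 2 of day 5 (0.112). Asb4 (3.03), Rgs5 (2.70), Prdm6 (2.10) and Col4a5 (2.09) also rose, and were not called without replicate 1 of day 4, with adjusted p of 0.226, 0.0924, 0.0561 and 0.279, or without replicate 2 of day 5, with 0.175, 0.140, 0.0718 and 0.257. The control arm had Ackr3 at 0.06 and Cxcr4 at -0.32. The tests of the differences between arms did not pass for either (adjusted p of 0.341 and 0.499).

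Among cardiac progenitor regulators 6 of 20 genes tested rose (Tbx20, Hand2, Isl1, Hand1, Gata4 and Fgf10) and 0 fell, with a median of 0.28, against 2.29% of all genes higher. Tbx20, a T-box factor of the heart fields, read 3.44 and 4.99 and then 5.81 and 8.36, a rise of 2.87 (adjusted p = 0.009269). Hand2, a basic helix-loop-helix factor of the second heart field, read 4.19 and 4.66 and then 5.69 and 8.49, a rise of 2.66 (adjusted p = 0.009845). Other probe sets moved less, at 0.41 and 0.75 for Tbx20 and at 0.85 and 0.32 for Hand2. In both genes the second day 5 array carried much of the rise, and without it the adjusted p was 0.101 and 0.0703.

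Isl1, a marker of second heart field progenitors, rose by 1.75 (adjusted p = 0.02734), with its first day 4 array at 5.63 and the other 3 at 7.80 to 8.60. Without that array it was at 0.67 (adjusted p = 0.255). Gata4, a zinc finger factor of heart and endoderm, rose by 1.51 (adjusted p = 0.009649), from 5.90 and 7.06 to 7.78 and 8.21. Leaving out replicate 1 of day 4 or replicate 2 of day 5 left 2 of the 20 genes higher (Hand1 and Fgf10), and the first of these fits called 1 lower. Mesp1 and Mesp2, the earliest factors of cardiac mesoderm, were at -0.14 and -0.09, and Nkx2-5 and Tbx5 at -0.04 and -0.03. In the control arm Isl1, Tbx20, Hand1, Mef2c and Smarcd3 rose and Mesp1, Mesp2 and Fgf10 fell, against 4% of all genes higher and 6.17% lower there. Mef2c was at -0.22 with Sox17 shRNA and rose by 1.44 in the control, but this difference between arms had an adjusted p of 0.0975. Of 27 contractile genes of heart muscle 0 were called with Sox17 shRNA, with a median of -0.08 and a range from -0.55 to 0.97. Over all genes 5.62% were called there, so 0 of 27 is near the background share.

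Hox genes, which mark position along the body axis, supplied 5 of 20 members that rose and 0 that fell, against 2.29% of all genes higher. The median of the list was 0.08, where all genes had -0.06. Hoxd9 went from 4.93 and 5.90 to 7.29 and 7.05, by 1.76 (adjusted p = 0.005183), and Hoxd8 from 4.83 and 5.04 to 6.13 and 6.07, by 1.16 (adjusted p = 0.005837). As for every gene called higher, both day 5 arrays lay above both day 4 arrays for each. Hoxb6 rose by 0.88 (adjusted p = 0.003777), Hoxb2 by 1.01 (adjusted p = 0.02642) and Hoxc8 by 0.78 (adjusted p = 0.03879). Hoxd8 and Hoxb6 were called without any 1 of the 4 arrays, and Hoxd9 was at an adjusted p of 0.0574 without replicate 1 of day 4. Hoxb2 was the only member called in the control arm, with a rise of 1.23, and Hoxd9 stayed between 5.11 and 5.34 on all 4 arrays. The difference between arms in Hoxd9 was 1.91 (95% interval 0.95 to 2.86, adjusted p = 0.141). Levels as low as those of Hoxb6 and Hoxc8 sit near the background of their probes, where RMA understates folds.

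Some markers of neighbouring lineages also rose, where 2.29% of all genes were higher. Of 12 trophoblast genes 4 rose (Peg10, Hand1, Plac1 and Gata3), and Peg10, an imprinted gene of the placenta, rose by 1.75 from 4.45 and 5.63 to 6.77 and 6.80 (adjusted p = 0.003618). Peg10 was called without any 1 of the 4 arrays. Of 15 genes of allantois and extraembryonic mesoderm 3 rose (Foxf1, Bmp4 and Hand1), all held also by the lists above. Of 22 endothelial genes 2 rose. Fli1, an Ets factor of blood and vessel progenitors, rose by 2.06 from 3.86 and 3.58 to 4.86 and 6.69 (adjusted p = 0.0149). A second Fli1 probe set was at 0.30, with overlapping days. Kdr, the main Vegf receptor, rose by 1.69 from 6.75 and 8.52 to 9.10 and 9.55 (adjusted p = 0.02642). Without replicate 1 of day 4 Kdr was at 0.80 (adjusted p = 0.266), and Tek, a receptor of mature endothelium, stayed between 4.24 and 4.55.

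Of 20 blood genes Tal1 alone rose, by 0.94 (adjusted p = 0.02004), against 2.29% of all genes higher. Hbb-y, an embryonic globin, stood at 8.54 and 4.56 and then at 10.72 and 5.40, and at 3.30 to 3.53 on the control arrays. The first replicate was the high one at both days, so the days overlapped and the difference of 1.51 did not pass (adjusted p = 0.510). Hba-x showed the same order, at 7.30 and 5.14 and then 8.74 and 5.09. The mean level of the 20 blood genes was 6.64 and 5.89 at day 4 and 6.87 and 6.10 at day 5 with Sox17 shRNA, and 5.63 to 5.86 on the control arrays. The part of this difference between replicates in the other results was not tested.

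In the endoderm list 2 of 25 genes rose, Cxcr4 and Gata4, and 0 fell, against 2.29% of all genes higher and 3.33% lower. The median was 0.41 and 19 of the 25 differences were positive. The mean level of the list was 7.28 and 8.53 at day 4 and 8.03 and 8.77 at day 5, below the 9.08 to 9.27 of the control arrays. Without replicate 1 of day 4 the median was -0.30, with 0 genes higher and 3 lower, and without replicate 2 of that day it was 1.15 with 13 higher. Foxa2, a forkhead factor of the endoderm, was at -0.24 (adjusted p = 0.656).

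The genes that fell were led by Fst and by genes of the pluripotent state. Fst, the secreted inhibitor of activins, fell most, from 11.44 and 11.23 to 9.88 and 7.65, a difference of -2.57 ± 0.50 (SE, adjusted p = 0.007293). Pou5f1, the Oct4 factor that holds pluripotency, stood at 11.83 and 11.58 and then at 10.75 and 8.57, a difference of -2.05 ± 0.54 (SE, adjusted p = 0.03424). L1td1, an RNA-binding protein of pluripotent cells, was at -2.19 (adjusted p = 0.02399), and Pim2, a survival kinase, at -2.36 (adjusted p = 0.03231). For all 4 genes the second day 5 array was at least 2 units below the first. Without it the adjusted p was 0.0793 for Fst, 0.364 for Pou5f1, 0.266 for L1td1 and 0.350 for Pim2.

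Of 25 pluripotency genes 6 fell (Pou5f1, Klf2, Sox2, Gdf3, Utf1 and Sall4) and 1 rose (Tbx3), with a median of -0.91. The background of genes that fell was 3.33%. Without replicate 1 of day 4, and also without replicate 2 of day 5, 1 member was called lower, and without replicate 1 of day 5 it was 15. Klf2, a Krüppel-like factor of naive cells, fell from 6.73 and 7.48 to 6.08 and 5.03 (-1.55, adjusted p = 0.004795). Sox2, the partner of Oct4, fell from 10.08 and 10.04 to 9.42 and 8.09 (-1.31, adjusted p = 0.04765). Nanog, at 11.44 and 9.91 and then 9.90 and 7.47, missed the threshold (-1.99, adjusted p = 0.0662), with its second day 4 array level with the first of day 5. Of the same 25 genes 10 fell in the control arm, Nanog among them by 2.78, against 6.17% of all genes lower there. For none of the 25 did the test of the difference between arms pass.

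Of 12 genes of the primed epiblast 3 fell, against 3.33% of all genes lower. Fgf5, the classic epiblast marker, went from 10.56 and 9.91 to 8.78 and 8.56 (-1.57, adjusted p = 0.0187). Dnmt3l, a cofactor of de novo DNA methylation, went from 7.31 and 7.39 to 6.45 and 5.37 (-1.44, adjusted p = 0.004885), and Foxd3, a transcriptional repressor active in the epiblast, from 5.54 and 5.42 to 4.70 and 4.73 (-0.76, adjusted p = 0.006136). As for every called gene, the arrays of the days did not overlap, and Foxd3 alone of the 3 was called without any 1 array. Chchd10, a mitochondrial protein, fell from 10.26 and 10.08 to 8.67 and 8.53 (-1.57 ± 0.15 SE, adjusted p = 9.302e-05), and it fell by 1.22 in the control arm. Ina, a neuronal intermediate filament, fell from 8.51 and 8.69 to 7.32 and 6.36 (adjusted p = 0.0009164). Other Ina probe sets were at -1.38 and -0.77, and the latter went from 7.12 and 8.03 to 7.42 and 6.17, so there the days overlapped. Adamts9, a matrix protease, fell from 9.50 and 10.01 to 7.99 and 8.30 (adjusted p = 0.001215). Other Adamts9 probe sets were at -0.25 and -0.56. Chchd10, Ina, Adamts9 and Dennd2c were called without any 1 of the 4 arrays.

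Nodal, the ligand that induces streak and endoderm, fell from 9.90 and 9.14 to 8.26 and 7.88 (-1.45, adjusted p = 0.005918). It was at 0.0688 without replicate 1 of day 4 and at 0.0620 without replicate 2 of day 5. Of 17 genes of the Nodal pathway 3 fell (Fst, Nodal and Gdf3) and Cfc1, a co-receptor, rose by 1.17 (adjusted p = 0.04885). Over all genes 3.33% were lower and 2.29% higher. The second co-receptor, Tdgf1, stood at 11.64 and 11.91 and then at 11.46 and 10.57 (-0.76, adjusted p = 0.281), where the control arm went from 12.18 and 11.74 to 8.65 and 7.90. That difference between arms, 2.92 with a 95% interval of 1.75 to 4.09, missed the threshold by little (adjusted p = 0.0514).

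Of 20 Wnt targets and antagonists 3 fell (Sp5, Wnt8a and Sp8) and Lgr5, a receptor for R-spondins, rose by 0.95 (adjusted p = 0.04207). Over all genes 3.33% were lower and 2.29% higher. Sp5, a direct Wnt target of the streak, went from 8.80 and 9.13 to 7.76 and 6.99 (-1.59 ± 0.26 SE, adjusted p = 0.002598), and it was called without any 1 of the 4 arrays. Wnt8a, a streak ligand, was at -1.31 (adjusted p = 0.01143) and Sp8, a related factor, at -1.11 (adjusted p = 0.02927).

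**Figure D3:**
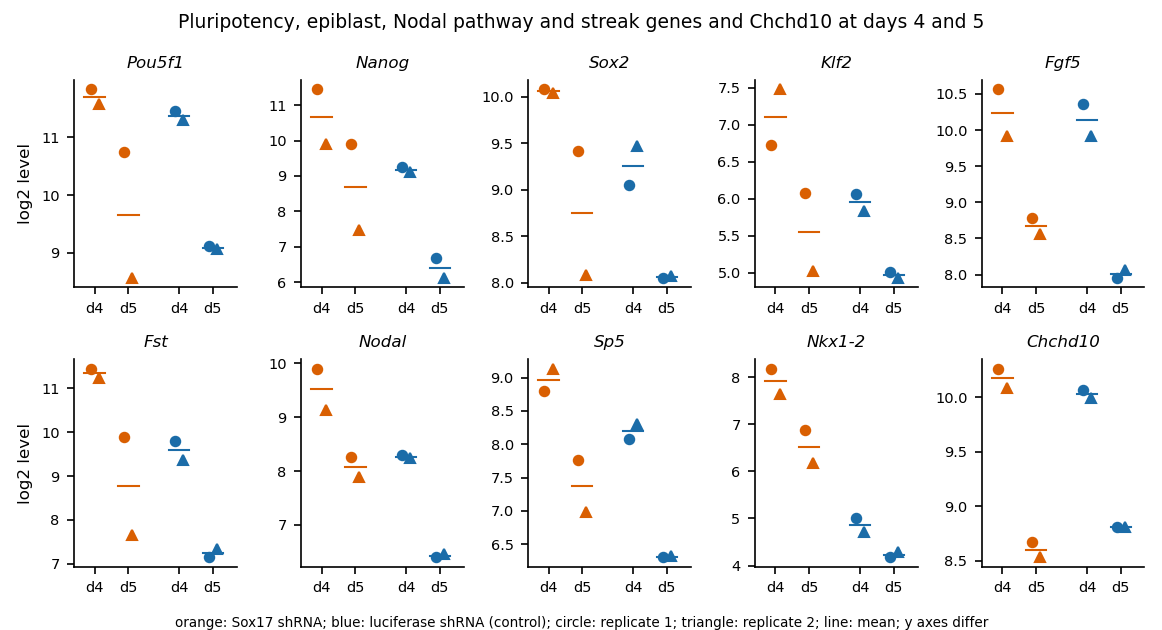
Log2 level on each of 8 arrays of 10 genes of pluripotency, epiblast, the Nodal pathway and the streak and of Chchd10; orange is Sox17 shRNA, blue the control, circles are replicate 1, triangles replicate 2 and short lines the mean of 2 arrays, with a y axis for each gene. For Pou5f1, Sox2 and Fst the first day 5 array of the knockdown lies between its day 4 arrays and the control arrays of day 5, and Nanog is shown although it did not pass the test.

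Of 20 primitive streak and early mesoderm genes 2 rose (Foxf1 and Kdr) and 2 fell (Nodal and Nkx1-2) with Sox17 shRNA, with a median of -0.11. Over all genes 2.29% were higher and 3.33% lower there. With luciferase shRNA 9 fell and 1 rose, with a median of -0.84, against 6.17% of all genes lower and 4% higher. Nkx1-2, a homeobox factor of the posterior growth zone, fell from 8.18 and 7.65 to 6.87 and 6.18 (-1.39, adjusted p = 0.003785). Goosecoid (Gsc), Eomes, Mesp1, Evx1 and Fgf8 fell in the control, with differences of -2.59, -1.89, -1.91, -1.98 and -2.31. With Sox17 shRNA they were at -0.65, 0.17, -0.14, -0.40 and -0.58. The test of the difference between arms gave adjusted p of 0.0608 for Gsc, 0.181 for Eomes, 0.187 for Mesp1, 0.0514 for Evx1 and 0.263 for Fgf8, so none of these 5 passed. Without replicate 2 of day 4 the median of the list was 0.48 with 8 genes higher, and without replicate 1 of that day it was -0.63 with 1 higher and 4 lower.

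The change across plating differed between arms in 13 genes (0.0978% of those tested), 8 with a higher change under Sox17 shRNA (0.0602%) and 5 with a lower one (0.0376%). Leaving out the second day 4 array of the knockdown gave 145 and 29, and leaving out the first control array of day 5 gave 1 and 3. In a fit on the 8 arrays alone limma gave 0, and the smallest adjusted p was 0.0504. Of the 13297 genes 357 had an unadjusted p below 0.05 there, below the share of 0.05 expected with no difference. Alx1, Rarb, Fgf10 and Pcdh8 were called without any 1 of the 8 arrays.

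Mixl1, a homeobox gene of the primitive streak, showed the largest such difference, 3.35 (95% interval 2.25 to 4.46, adjusted p = 0.008172). With Sox17 shRNA it read 10.37 and 11.36 at day 4, then 10.43 and 9.89 at day 5 (-0.71, adjusted p = 0.289). In the control arm it went from 10.08 and 10.10 to 5.82 and 6.25. At day 4 both knockdown arrays lay above the control arrays, and at day 5 the arms were far apart. At day 6 the knockdown arrays read 6.21 and 5.98. The difference was not called without the first control array of day 4 or of day 5 (adjusted p of 0.0514 and 0.0818).

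Fgf ligands made up 2 of the 8. Fgf10, a ligand of the second heart field, rose from 5.31 and 5.65 to 6.37 and 6.70 with Sox17 shRNA, by 1.05 (adjusted p = 0.003491), and fell from 6.14 and 6.33 to 5.18 and 5.49 in the control. The change differed by 1.95 (95% interval 1.43 to 2.48, adjusted p = 0.002551). Fgf15, a ligand of neural and endodermal tissue, rose from 6.33 and 5.96 to 7.58 and 7.62 (adjusted p = 0.003777). In the control it was at 6.79 and 6.70 and then 6.11 and 6.15 (difference between arms 2.07, adjusted p = 0.02022). The rises of Fgf10 and Fgf15 were called without any 1 of the 4 arrays. Of 18 Fgf pathway genes 2 rose and 3 fell with Sox17 shRNA (Fgf17, Fgf5 and Etv5 fell), and 2 rose and 9 fell in the control. Over all genes 2.29% were higher and 3.33% lower with Sox17 shRNA, and 4% and 6.17% in the control. Fgf17, a ligand of the streak, fell by 1.60 from 7.60 and 6.79 to 6.16 and 5.03 (adjusted p = 0.003796), and was called without any 1 of the 4 arrays.

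Fbln2, a matrix glycoprotein, rose from 5.86 and 6.06 to 6.83 and 7.69 (1.30, adjusted p = 0.001322), while the control arrays stayed between 5.82 and 6.35 (difference 1.71, adjusted p = 0.007708). The rise of Fbln2 was called without any 1 of the 4 arrays. Klhl6 read 6.17 and 8.12 at day 4, then 8.16 and 8.68 at day 5 with Sox17 shRNA (1.27, adjusted p = 0.0507), and went from 8.39 and 8.19 to 6.62 and 6.47 in the control. Zcchc12 and St6galnac4 were at 0.54 and 0.31 with Sox17 shRNA and fell by 0.93 and 1.19 in the control. Klhl6, St6galnac4, Fgf15 and Cyp51 lost the call in at least 5 of the 8 fits that left out 1 array.

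The genes with the lower change under Sox17 shRNA included 4 that rose in the control and were not called with Sox17 shRNA. Alx1, a homeobox gene of head mesenchyme, stayed at 3.84, 3.71, 3.95 and 4.06 with Sox17 shRNA. In the control it rose from 3.94 and 4.02 to 7.35 and 6.86 (difference between arms -2.91, 95% interval -3.55 to -2.26, adjusted p = 0.0003015). Rarb, a retinoic acid receptor and itself a target of retinoic acid, stayed between 4.50 and 4.83 and rose from 4.67 and 4.76 to 6.75 and 6.65 in the control (difference -2.11, adjusted p = 0.003994). Hesx1, a homeobox repressor of anterior endoderm and forebrain, stayed between 4.76 and 5.06 and rose from 5.23 and 5.25 to 7.60 and 7.13 in the control (difference -1.95, adjusted p = 0.004408). Ptgds, a prostaglandin synthase, showed a difference of -1.01 (adjusted p = 0.006364). At day 6 the knockdown arrays read 5.32 and 6.20 for Rarb and 4.10 and 3.78 for Alx1.

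Pcdh8, a protocadherin of paraxial mesoderm, moved in opposite directions. It fell from 6.87 and 7.80 to 5.56 and 5.65 with Sox17 shRNA, by 1.73 on the log2 scale (adjusted p = 0.004808), and was called without any 1 of the 4 arrays. In the control it rose from 5.22 and 6.38 to 7.50 and 7.21, by 1.56 (adjusted p = 0.00481). The difference between arms was -3.29 (95% interval -4.22 to -2.37, adjusted p = 0.003039).

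**Figure D4:**
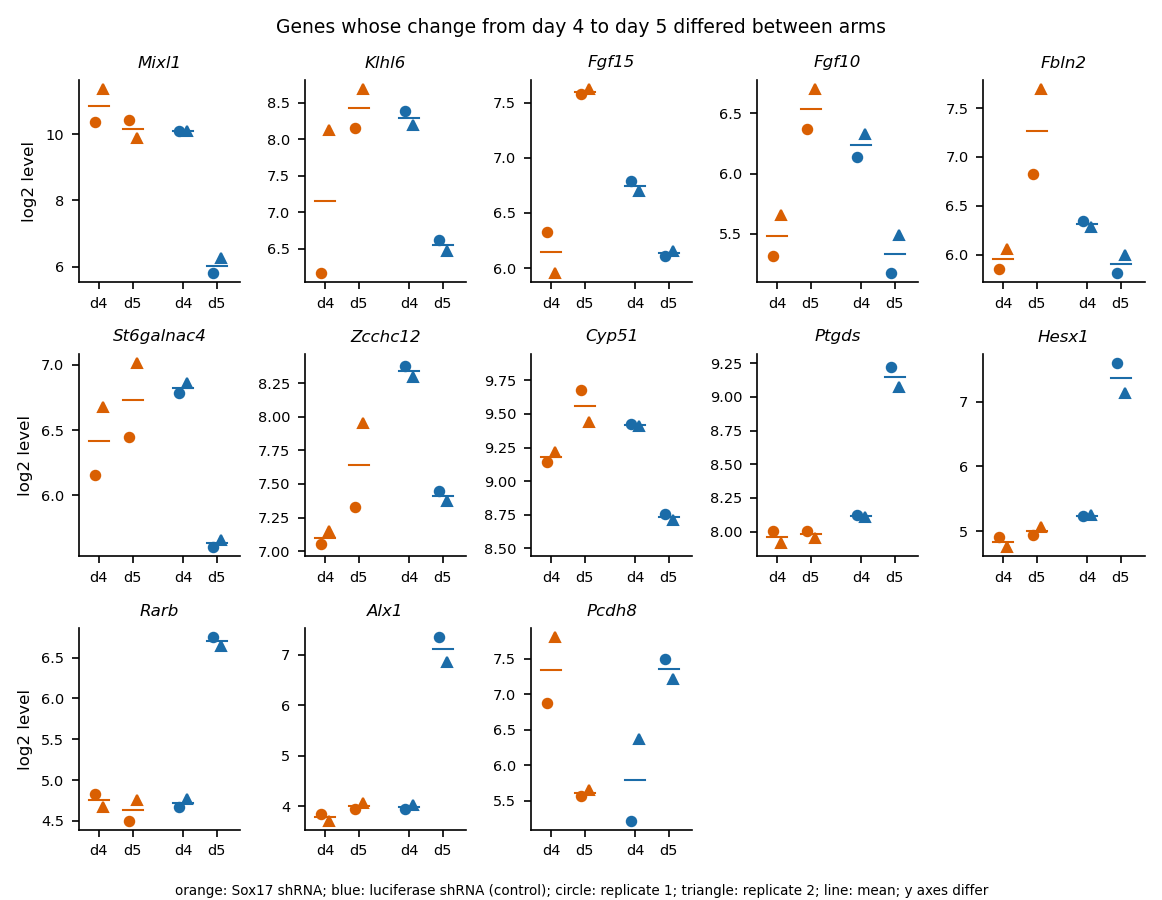
Log2 level on each of 8 arrays of the 13 genes whose change from day 4 to day 5 differed between arms; orange is Sox17 shRNA, blue the control, circles are replicate 1, triangles replicate 2 and short lines the mean of 2 arrays, with a y axis for each gene. Mixl1 is low only on the control arrays of day 5, and Alx1, Rarb and Hesx1 are high only there.

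Cyp51, an enzyme of cholesterol synthesis, was at 0.38 with Sox17 shRNA, from 9.14 and 9.22 to 9.67 and 9.44 (adjusted p = 0.112), and fell from 9.42 and 9.41 to 8.75 and 8.72 in the control (difference 1.06, adjusted p = 0.02916). Of 19 genes of cholesterol synthesis 0 were called with Sox17 shRNA, with a median of 0.08, where 5.62% of all genes were called, so 0 is near the background share. In the control 10 fell, with a median of -0.63, against 6.17% of all genes lower. For the other 18 the test of the difference between arms did not pass. Lss, a cyclase of the pathway, came closest with a difference of 1.17 (95% interval 0.64 to 1.69, adjusted p = 0.0800).

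Matrix and adhesion genes gave mixed calls, where 2.29% of all genes were higher and 3.33% lower. Of 23 mesenchyme genes 4 rose (Snai2, Cdh11, Mmp2 and Prrx2) and Thy1 fell. Snai2, a repressor of E-cadherin, rose by 1.69 with Sox17 shRNA, from 3.88 and 4.37 to 4.54 and 7.08 (adjusted p = 0.04276), and the second day 5 array was the one that stood high. Without it the difference was 0.41 (adjusted p = 0.425). In the control Snai2 rose by 4.39. Of 18 genes of the cadherin switch 4 rose, among them Zeb1, a repressor of epithelial genes. Zeb1 went from 5.91 and 6.60 to 7.32 and 7.79 (1.30, adjusted p = 0.00161) and was called without any 1 of the 4 arrays. Other Zeb1 probe sets were at 0.21 and 0.43. Esrp1, an epithelial splicing factor, was the 1 that fell (-1.10, adjusted p = 0.03736).

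Of 19 genes of parietal endoderm and basement membrane 3 rose (Plat, Pth1r and Serpinh1) and 2 fell (Fst and Lama5). Over all genes 2.29% were higher and 3.33% lower. Plat, the tissue plasminogen activator, rose by 1.11 from 5.93 and 5.75 to 6.80 and 7.10 (adjusted p = 0.003768), and by 2.25 in the control, and was called without any 1 of the 4 arrays.

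Several lists had 0 members called with Sox17 shRNA, which in lists of this size is near the background of 5.62% of all genes called. These were smooth muscle and actin (0 of 20, median -0.21), focal adhesion (0 of 23, median -0.03), Yap and Srf targets (0 of 18, median -0.26) and the Notch pathway (0 of 19, median 0.01). For the lists that follow, 2.29% of all genes were higher and 3.33% lower. Proliferation genes gave 2 lower of 27 (Mybl2 and Cdc20), with 25 of the 27 differences negative and a median of -0.18. Of 26 hypoxia and glycolysis genes 2 fell (Hk2 and Ndrg1). Of 24 genes of unfolded protein and amino acid stress 2 fell (Slc7a3 and Sesn2), Slc7a3 by 1.77 on the log2 scale (adjusted p = 0.01711). Of 19 interferon genes 2 rose (B2m and Ifitm1) and 2 fell (Bst2 and Irf1), and B2m was called without any 1 of the 4 arrays.

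**Figure D5:**
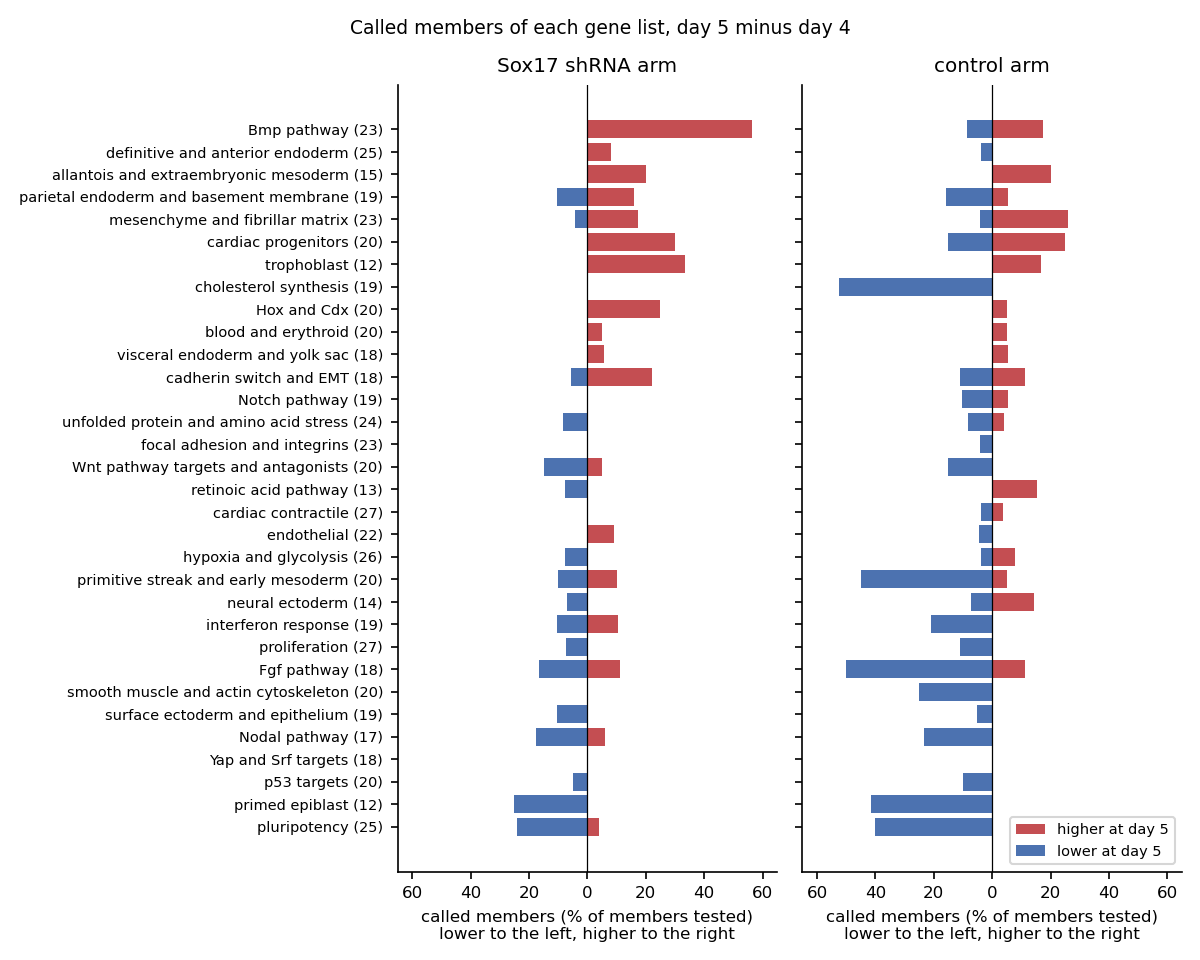
Share of the tested members of 32 gene lists called higher (red, to the right) and lower (blue, to the left) at day 5, in percent of members tested, with the number tested in brackets; the left panel is Sox17 shRNA and the right panel the control. The Bmp pathway has the longest red bar with Sox17 shRNA (13 of 23), and cholesterol synthesis has no bar there against 10 of 19 lower in the control.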

How the data were processed

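The deposited values are log2 expression values for 45101 probe sets on 27 arrays, made with RMA per the submitters' processing notes, with the version not given in the sources used here. RMA quantile-normalizes arrays, so differences are relative to the other genes and folds at low levels are understated. Probe sets with 1 gene symbol in the platform table (34958) were kept where 2 or more arrays read above 5.53, the median over the whole table (23536), and each gene was taken from its probe set with the highest mean (13297 genes). A mean for each of 14 groups was fitted with limma 3.58.1 in R 4.3.3, with an intensity trend, 13 residual degrees of freedom, two-sided tests and Benjamini-Hochberg adjustment. The fit was also run on simulated data in which each gene had the same spread in all groups. That run could not test the wider spread of the Sox17 shRNA arrays. Standard errors (SE) are those of the fit.

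The 100 named genes are Sox17, Hhex and Cer1, the 15 largest rises and 15 largest falls, the genes that differed between arms, and up to 5 called members of each of 32 lists; other list members are given to show ones that did not pass or to complete a count. The members and lists were chosen with earlier results of these data known. Alternatives covered filters, probe sets, scaling, variance models, covariates and left-out arrays. The number of arrays limits the precision.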

Additional observations from a re-analysis of the deposited data

Results flagged for a closer look

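These 13 genes stand out because the test of the difference itself, Sox17 shRNA change minus control change from day 4 to day 5, passed in limma (adjusted p below 0.05). The difference was 3.35 for Mixl1, 3.02 for Klhl6, 2.07 for Fgf15, 1.95 for Fgf10, 1.71 for Fbln2, 1.51 for St6galnac4, 1.47 for Zcchc12 and 1.06 for Cyp51. It was -1.01 for Ptgds, -1.95 for Hesx1, -2.11 for Rarb, -2.91 for Alx1 and -3.29 for Pcdh8. With 2 arrays in a group, single arrays could not be tested as outliers within a group.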

How the results depend on the processing

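With Sox17 shRNA the counts of genes higher and lower at day 5 were 304 and 443. They were 14 and 4 with array weights (weights of 0.252 at day 4 and 0.510 at day 5), 0 and 0 with only the arrays of the groups compared, 135 and 246 with the arrays of day 4 to day 10, 885 and 926 with the actin 3' to 5' difference as a covariate, 96 and 68 with a 2-fold minimum, and 75 and 99 at an adjusted p below 0.01. Leaving out 1 array gave 76 to 1250 higher and 170 to 1361 lower. In the control arm (532 and 821) the same settings gave 351 and 449 with only the arrays of the groups compared, 136 and 115 with the 2-fold minimum, and 159 and 280 at an adjusted p below 0.01. The bioB covariate gave 296 higher there, and leaving out 1 array gave 81 to 653 higher and 137 to 1166 lower. The difference between arms (8 and 5) became 13 and 9 with the mean of a gene's probe sets, 14 and 10 with centred arrays, 1 and 2 with array weights, 0 and 0 with only the arrays of the groups compared, 51 and 25 with the bioB covariate and 69 and 17 with the actin covariate. It became 4 higher with the arrays of day 4 to day 10 and at an adjusted p below 0.01, and 8 lower with no filter. Leaving out 1 array gave 1 to 145 higher and 3 to 29 lower. Fewer arrays or a stricter rule are part of several of these settings, and otherwise the cause was not tested.

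The sign turned for Sox17 without replicate 1 of day 4 (-0.46), for Hhex with the bioB covariate (-0.13), without replicate 1 of day 4 (-0.69) and without replicate 2 of day 5 (-0.06), and for Cer1 with the actin covariate (0.46), without replicate 2 of day 4 (1.53) and without replicate 1 of day 5 (0.36). Leaving out 1 array gave -0.46 to 3.39 for Sox17, -0.69 to 1.40 for Hhex and -1.80 to 1.53 for Cer1. None of these 3 genes was called in the main fit. Leaving out a single array could call each of them, and Cer1 in either direction. Of the 13 genes that differed between arms, 0 turned sign in any alternative.

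With the replicate number as a block the counts were 424 and 588 with Sox17 shRNA and 15 and 8 for the difference between arms. Deviations of same-numbered arrays at day 4 and day 5 correlated at 0.370 with Sox17 shRNA and 0.138 in the control, and with 2 numbers an arm the arrays share only a number.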
